A study of Mus musculus with 30 samples.

Results

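Bone marrow (BM) of *Ob/Ob* mice that had received Shp2 E76K/+ donor cells was compared between recipients given the GLP-1R agonist beinaglutide and recipients given vehicle. The comparison holds 6 of the 30 libraries of the series, 3 labelled as agonist-treated and 3 labelled as vehicle, and all 13353 genes of the BM count table. Both groups were leptin-deficient *Ob/Ob* recipients on a C57BL/6J background, lethally irradiated with 700 plus 400 cGy, and transplanted with CD45.2+ BM cells of Shp2 E76K/+;LysM-Cre+ mice mixed in equal number with CD45.1+ competitor cells of Boy/J mice. From 8 weeks after transplantation they were treated for 30 days, with vehicle or with 3 mg/kg of beinaglutide injected under the skin. The mutation, the competitor cells and the irradiation were thus shared by agonist and vehicle. The other groups of BM libraries served as references, namely WT recipients of the same cell mixture, and *Ob/Ob* recipients given an anti-IL-17A antibody alone or together with the agonist (Combo). No drug, vehicle or treatment time is given for the WT recipients. They thus differ from agonist mice in recipient genotype and treatment, and perhaps in time. The labels give an age of 12 to 14 weeks, males and females, and 3 mice per group, and do not say which library came from which sex. The study's methods give another age, that of the recipients at transplantation. With 8 weeks and 30 days of treatment to follow, treated mice were by the methods older than 12 to 14 weeks at harvest. What the labels' age refers to is not settled here. LysM-Cre acts in cells of the myeloid lineage, and the stroma of the marrow remained that of the host, so that the RNA came from mutant, competitor and residual host cells together.

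GLP-1 is a gut hormone released after meals, and its receptor (GLP-1R) raises cyclic AMP in pancreatic beta cells and neurons. Agonists of the receptor lower blood glucose, food intake and body weight. SHP2, encoded by *Ptpn11*, is a phosphatase that carries cytokine and growth factor signals to the Ras-ERK pathway, and the E76K change holds it in the open, active form. Interferons signal through JAK kinases to STAT proteins and IRF9, which bind a short DNA element, the interferon-stimulated response element (ISRE), in front of antiviral genes. IL-17A is made mostly by Th17 and innate lymphoid cells and acts with TNF to induce neutrophil chemokines and acute-phase proteins.

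The 6 libraries held 31086184 to 36181282 counts on genes. All levels below are normalized counts, scaled to the mean effective library size of the 15 BM libraries (the total times edgeR's TMM factor), and follow the order of replicates 1 to 3. Genes that define marrow were abundant in both groups, among them *Mpo*, a granule enzyme of promyelocytes (59808 ± 1036 in vehicle and 95073 ± 374 with the agonist, normalized counts, SD, n = 3), and *Slc4a1*, the anion exchanger of red cells (12766 ± 191 and 43630.4 ± 842). The biological coefficient of variation between BM replicates was 3.51%. The labels give 3 mice per group, equal to the number of libraries, but nothing in the sources used here states that each library is 1 mouse and not a pool. The p-values thus measure the spread between these libraries, which may be technical. *Glp1r*, *Gcg* and *Lep* are not analysed here. *Ptpn11*, present in mutant and normal form, differed little (vehicle 4509.9, 4426 and 4719, agonist 4836, 4867 and 4762, log2 fold change 0.084, standard error 0.0293, adjusted p = 0.0105, edgeR quasi-likelihood test).

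Genes that differ between the sexes went with the groups, and this bears on every comparison with vehicle. *Xist*, the noncoding RNA that coats the inactive X chromosome of female cells (chromosome X, 103460366 to 103483254 of GRCm38), was at 6582, 6712 and 6339 normalized counts in the vehicle libraries and at 5.62, 0.876 and 0 in the agonist libraries. The ratio of its summed counts, scaled to library size, was 2982 (vehicle over agonist, exact 95% counting interval 1447 to 7418), and 12.6% of its exon bases are shared with another gene. The Y-linked genes *Ddx3y* (fold change 2.69), *Uty* (3.23) and *Eif2s3y* (2.03) were called higher with the agonist, and *Eif2s3y* was not without agonist replicate 2 or vehicle replicate 1 (log2 fold changes of 0.98 and 0.99). *Kdm5d* was higher without passing the fold limit (log2 fold change 0.83, standard error 0.0946, adjusted p = 6.05e-10, edgeR). The vehicle libraries thus held both *Xist* and Y-linked RNA, with *Ddx3y* at 743, 698 and 695 against 1802, 1920.3 and 2015 with the agonist. Sex of the marrow cells and treatment cannot be told apart between these groups. Of the 5 sex-linked genes measured, 0 were called between agonist and WT libraries, and 1 was called lower than with the anti-IL-17A antibody. The Combo libraries, which had the antibody as well, had *Xist* at 3657, 3644 and 3528. Their level of the interferon-stimulated gene *Isg15* was 165, 175 and 203, against 33006, 31933 and 33374 in vehicle libraries and 251, 268 and 229 with the agonist alone. The part of sex in the differences from vehicle was not tested.

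In what follows a called gene is one that passed edgeR's quasi-likelihood test at a false discovery rate (Benjamini-Hochberg) of 0.05 over all genes and also moved more than 1 on the log2 scale, the study's own limits. By this rule 2228 of the 13353 genes (16.7%) were called, 1015 higher with the agonist (7.6%) and 1213 lower (9.08%). The median log2 fold change of all genes was 0.01. Large decreases outnumbered large increases: beyond a log2 fold change of 5, 80 called genes were lower and 8 higher, and beyond 3, 225 were lower and 74 higher. Replicates were close to each other, so that 9717 genes (72.8%) passed the false discovery rate alone, and for 75.5% of the genes the libraries of the groups did not overlap. On the X chromosome 78 of 416 genes were called (18.8%), and on the chromosomes other than X and Y 2147 of 12933 (16.6%).

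**Figure D1:**
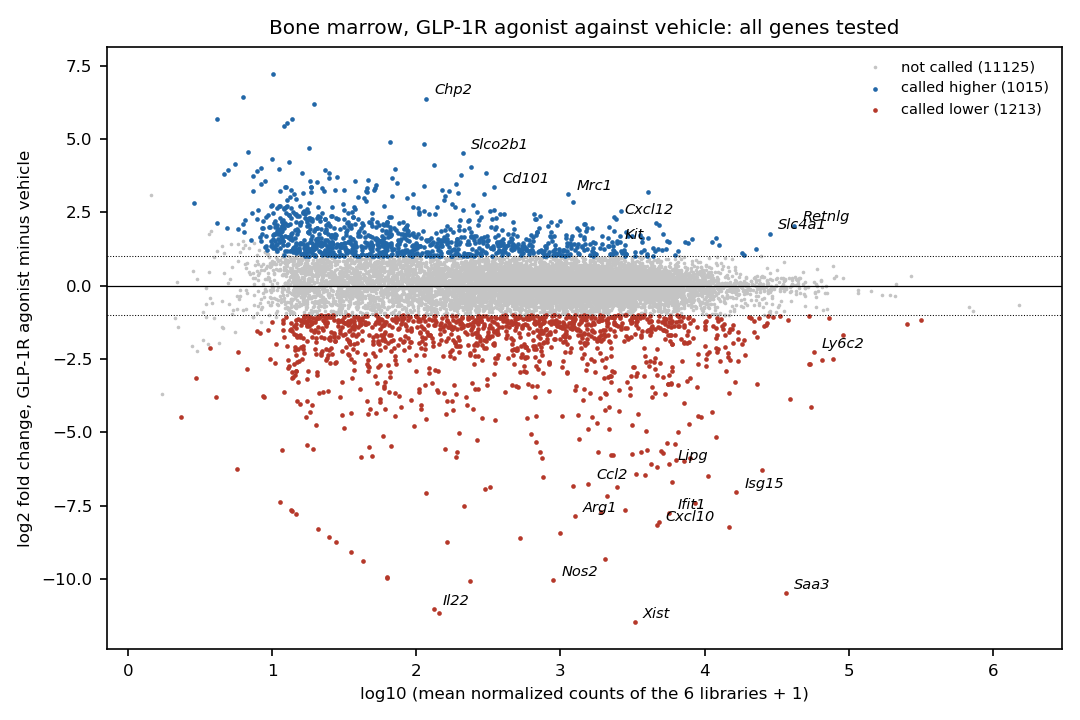
Each point is 1 of the 13353 genes, with the log10 of its mean normalized count over the 6 libraries plus 1 on the horizontal axis and the log2 fold change, agonist minus vehicle, on the vertical axis; dotted lines mark the fold limit. The 1213 genes called lower (red) reach a log2 fold change of -11.46 at *Xist*, and the 1015 called higher (blue) lie closer to 0 than the lowest red points.

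Genes averaging at least 100 normalized counts over the 6 libraries, with libraries apart, were ranked by edgeR's log2 fold change. The 10 largest decreases were those of *Xist*, *Cxcl11*, *Il22*, *Saa3*, *Gm15056*, *Nos2*, *Oas1g*, *Ccl7*, *Ccl12* and *Ifi44*. Where few or no counts were left with the agonist, this mean came almost wholly from the vehicle libraries. The rank of such genes depends on the small value that edgeR adds to counts. *Saa3*, an acute-phase protein made by macrophages and fat cells, was at 70778, 73811 and 75149 in vehicle libraries and at 46.9, 45.6 and 63.4 with the agonist, a 1419-fold decrease (log2 fold change -10.47, standard error 0.0528, adjusted p = 1.14e-49, edgeR). *Nos2*, the inducible nitric oxide synthase, was at 1813, 1831 and 1712 in vehicle libraries and had 4, 1 and 0 counts with the agonist. This was a ratio of 1139 by summed counts scaled to library size, with an exact 95% counting interval of 488 to 3509.8, and such intervals cover counting error only. *Il22*, a cytokine that acts on epithelial cells, and *Cxcl11*, a ligand of CXCR3, had 0 counts in every agonist library. Against a floor of 3 counts per library they were at least 92.8-fold and at least 101-fold lower. Of the exon bases of *Cxcl11*, 41.7% are shared with another gene, and reads there were counted for each gene without regard to strand. The predicted gene *Gm15056* was at 466, 434 and 503 in vehicle libraries and had 0, 1 and 0 counts with the agonist.

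The 10 largest increases by the same rule were smaller and came from genes at modest levels. They were *Chp2*, *Stxbp6*, *Slco2b1*, *Cd300lg*, *Slfn14*, *6030468B19Rik*, *Hpgd*, *Gpd1*, *Kcnj10* and *Cd101*. *Chp2*, a calcineurin B homologous protein, rose from 5.67, 1.07 and 1.2 to 245, 223 and 221 normalized counts, a ratio of 86.7 by summed counts (exact 95% counting interval 41.9 to 217). The mean of *Chp2* thus came almost wholly from the agonist libraries. *Slco2b1*, an organic anion transporter, rose from 17, 17.2 and 18 to 415, 387 and 398 (log2 fold change 4.51, standard error 0.154, adjusted p = 1.07e-26, edgeR). *Stxbp6*, a SNARE-binding protein, went from 11.3, 5.37 and 6 to 197, 226 and 224, and *Slfn14*, of the schlafen family, from 24.9, 22.6 and 34.8 to 429, 442 and 477. *Cd300lg* rose 17.2-fold and *Kcnj10*, a potassium channel, 10.5-fold. *Hpgd*, which inactivates prostaglandins, rose 13.5-fold and *Gpd1*, the cytosolic glycerol 3-phosphate dehydrogenase, 11.1-fold. *Cd101*, a surface protein of mature neutrophils, rose from 61.2, 58 and 64.8 to 608, 635 and 655 and was higher still in WT marrow, at 2449, 2391 and 2452. The libraries of the groups were apart for all 20 of these genes, by the rule that chose them.

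Among 37 gene lists, chosen with earlier results of these data known, that of type I interferon-stimulated genes was the only one with every measured member called. Of the 44 listed, 43 were measured, and all 43 were called lower with the agonist, beside 9.08% of all genes. Their median log2 fold change was -5.36, beside 0.01 for all genes, and single members ranged from -9.32 to -1.68. *Isg15*, a ubiquitin-like protein joined to other proteins during viral infection (chromosome 4, 156199424 to 156200818 of GRCm38), was at 33006, 31933 and 33374 in vehicle libraries and at 251, 268 and 229 with the agonist. This was a 131-fold decrease (log2 fold change -7.03, standard error 0.0455, adjusted p = 4.24e-49, edgeR), and the lowest vehicle library lay far above the highest agonist library. *Ifit1*, which binds foreign RNA ends, was at 11597, 11178 and 11177 in vehicle libraries and 50.6, 47.3 and 59.3 with the agonist (log2 fold change -7.76, standard error 0.0831, adjusted p = 6.86e-32, edgeR). *Oas1g*, a 2'-5' oligoadenylate synthetase, fell from 4081, 3992 and 4164 to 6.56, 8.76 and 3.07, with 7, 10 and 3 counts left. *Ifi205*, a DNA-binding protein of the PYHIN family, fell 212-fold, from 3829 ± 171 to 18.1 ± 3.93 (SD, n = 3). Of the transcription factors of the pathway, *Irf7* fell 78.7-fold and *Irf9* 3.21-fold.

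Promoter sequences (RefSeq, build GRCm38.p6, 250 bases before to 50 after a gene's start) were available for 10113 of the genes tested and 32 of the 43 interferon-stimulated genes. They are shown for 4 genes of which the values are given here, because the listed genes fell together. Capitals mark matches to the ISRE, searched on both strands as GAAA, any 2 bases and GAAA, and a run of capitals longer than 10 letters is made of overlapping matches.
*Isg15* (chr4:156200769-156201068, minus strand): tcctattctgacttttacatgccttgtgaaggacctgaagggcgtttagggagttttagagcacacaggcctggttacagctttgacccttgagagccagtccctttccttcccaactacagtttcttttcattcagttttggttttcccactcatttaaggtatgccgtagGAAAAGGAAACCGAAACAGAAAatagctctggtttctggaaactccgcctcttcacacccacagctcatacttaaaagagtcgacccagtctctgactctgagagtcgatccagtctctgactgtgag
*Ifit1* (chr19:34640639-34640938, plus strand): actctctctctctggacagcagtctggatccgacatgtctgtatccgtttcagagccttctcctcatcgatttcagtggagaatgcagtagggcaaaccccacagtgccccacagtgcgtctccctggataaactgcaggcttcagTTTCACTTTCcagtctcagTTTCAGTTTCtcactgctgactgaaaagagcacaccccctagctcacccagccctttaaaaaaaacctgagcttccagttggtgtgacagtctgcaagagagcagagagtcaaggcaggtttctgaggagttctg
*Oas1g* (chr5:120887564-120887863, minus strand): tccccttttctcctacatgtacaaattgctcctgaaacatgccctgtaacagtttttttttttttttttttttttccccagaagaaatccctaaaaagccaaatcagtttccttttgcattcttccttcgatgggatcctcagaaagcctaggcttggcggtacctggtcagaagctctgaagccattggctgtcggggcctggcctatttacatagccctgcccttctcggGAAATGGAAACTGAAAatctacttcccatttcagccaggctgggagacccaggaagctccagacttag
*Cxcl10* (chr5:92348840-92349139, minus strand): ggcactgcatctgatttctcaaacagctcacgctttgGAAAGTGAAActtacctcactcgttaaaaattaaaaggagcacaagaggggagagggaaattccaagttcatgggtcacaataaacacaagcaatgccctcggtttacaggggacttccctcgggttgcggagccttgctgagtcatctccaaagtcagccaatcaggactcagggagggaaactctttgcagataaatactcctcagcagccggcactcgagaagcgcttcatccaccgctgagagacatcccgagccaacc

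Such a match lay in the window of 19 of the 32 interferon-stimulated genes (59.4%), 11 of 22 genes of the interferon gamma list (50%) and 398 of all 10113 genes (3.94%). In *Isg15* the first of 3 overlapping matches began 78 bases before the start, in *Ifit1* the first of 2 separate matches 104 bases before it, and in *Cxcl10* the only match 213 bases before it. Over all genes with a match, 104 of 398 were called lower (26.1%) and 18 higher (4.52%), with a median log2 fold change of -0.22. Among the 9715 genes without a match 8.07% were called lower and 7.51% higher, with a median of 0.013. Of the 350 genes with a match that are on none of the lists, 66 were called lower (18.9%) and 17 higher (4.86%). These are counts of letters, with no test, and a match is not evidence of binding.

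Genes induced by interferon gamma were lower as well. Of 28 measured members 25 were called lower and 0 higher (median log2 fold change -3.59), and the rest were the receptor chains *Ifngr1* and *Ifngr2* and the transcription factor *Irf8*. *Cxcl10*, a ligand of the T cell chemokine receptor CXCR3, was at 9445, 9078 and 9446 in vehicle libraries and 28.1, 32.4 and 36.8 with the agonist, 287-fold lower. *Cxcl9*, a ligand of the same receptor, was at 9317, 9769 and 9575 and, with the agonist, at 40.3, 33.3 and 32.7. *Gbp2*, a guanylate-binding protein that attacks the vacuoles of intracellular microbes, fell from 20802 ± 187 to 231 ± 8.57 (log2 fold change -6.49, standard error 0.0456, adjusted p = 2.45e-50, edgeR). *Ifng* itself, the ligand, was low and fell from 134, 139.6 and 115 to 9.37, 8.76 and 12.3 normalized counts (log2 fold change -3.67, standard error 0.303, adjusted p = 5.21e-14, edgeR).

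Chemokines that draw monocytes and neutrophils fell, while the stromal chemokine *Cxcl12* rose. Of 16 genes of the CC and CXC chemokine list, the chemokine-binding receptor *Ccrl2* among them, 13 were called lower (81.2%) and 1 higher (6.25%). These shares stand beside 9.08% and 7.6% of all genes, and the median log2 fold change was -3.28. *Ccl2*, the main ligand of the monocyte receptor CCR2, was at 3069, 2982 and 3111 in vehicle libraries and 23.4, 35.1 and 25.5 with the agonist, 108-fold lower (log2 fold change -6.75, standard error 0.109, adjusted p = 2.06e-38, edgeR). *Ccl7* and *Ccl12*, from the same cluster of genes, kept 2 and 8 counts in all 3 agonist libraries together. Their ratios by summed counts were 519 (exact 95% counting interval 143 to 4291) and 412 (209 to 956). *Cxcl3*, a neutrophil chemoattractant, fell from 655, 604 and 651 to 5.62, 2.63 and 8.18. With at least 10 counts required in every library 9 members were called. This minimum takes genes such as *Ccl7* and *Ccl12* out of the test, so it is no check of their calls. *Cxcl12*, which holds stem cells in the marrow, was at 824, 788 and 875 in vehicle libraries and 4021, 4164 and 3911 with the agonist, 4.87-fold higher (log2 fold change 2.28, standard error 0.045, adjusted p = 3.15e-35, edgeR).

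Among cytokines of the innate response, 11 of 18 were called lower (61.1%) and 1 higher (5.56%), beside 9.08% and 7.6% of all genes. The median log2 fold change was -1.41. *Il6* was at 344, 303 and 324 in vehicle libraries and at 89.1, 46.5 and 67.4 with the agonist (log2 fold change -2.26, standard error 0.175, adjusted p = 1.02e-14, edgeR), and its groups did not overlap. *Il1rn*, the antagonist of the IL-1 receptor, fell 8.4-fold and *Il27* 11.6-fold. *Il1b* went the other way, from 604, 532 and 555 to 1807, 1794 and 1872, a 3.24-fold rise (log2 fold change 1.69, standard error 0.0465, adjusted p = 5.13e-30, edgeR), and WT marrow had more, at 5166, 5031 and 5034. *Tnf* fell by too little for the fold limit, from 1515, 1555 and 1664 to 1083, 1054 and 1014 (log2 fold change -0.59, standard error 0.0511, adjusted p = 2.54e-13, edgeR). The death ligand *Tnfsf10* fell 4.7-fold.

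In the IL-17 axis the cytokines and several of their targets fell, while the receptor chain *Il17ra* was not called. Of 16 genes 10 were called lower and 0 higher (median log2 fold change -1.25). With at least 10 counts required in every library 5 members were called, but this minimum takes *Il17a* and *Il22* out of the test. *Il17a* had 28, 24 and 18 counts in vehicle libraries and 0 in each agonist library, at least 9-fold lower against the floor. *Il17f* was at 30.6, 33.3 and 32.4 in vehicle libraries and 6.56, 8.76 and 3.07 with the agonist, a ratio of 5.12 by summed counts (exact 95% counting interval 3.12 to 8.79). *Il17ra*, the receptor chain shared by both cytokines, was at 11616, 12223 and 12179.9 in vehicle and 12874, 12498 and 12463 with the agonist (log2 fold change 0.071, standard error 0.0249, adjusted p = 0.0107, edgeR). *Cxcl2*, an IL-17 target and neutrophil chemoattractant, fell from 3308, 3269.9 and 3305 to 550.3, 555 and 599 (log2 fold change -2.54, standard error 0.0501, adjusted p = 3.27e-35, edgeR). The target *Lcn2*, an iron-withholding granule protein, was among the most counted genes and fell 2.46-fold, from 361954 ± 9455 to 146845 ± 2159, whereas *Mmp13* had a log2 fold change of -0.17. In bulk RNA, fewer cells of a type and less RNA per cell cannot be told apart, here and for every result that follows.

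**Figure D2:**
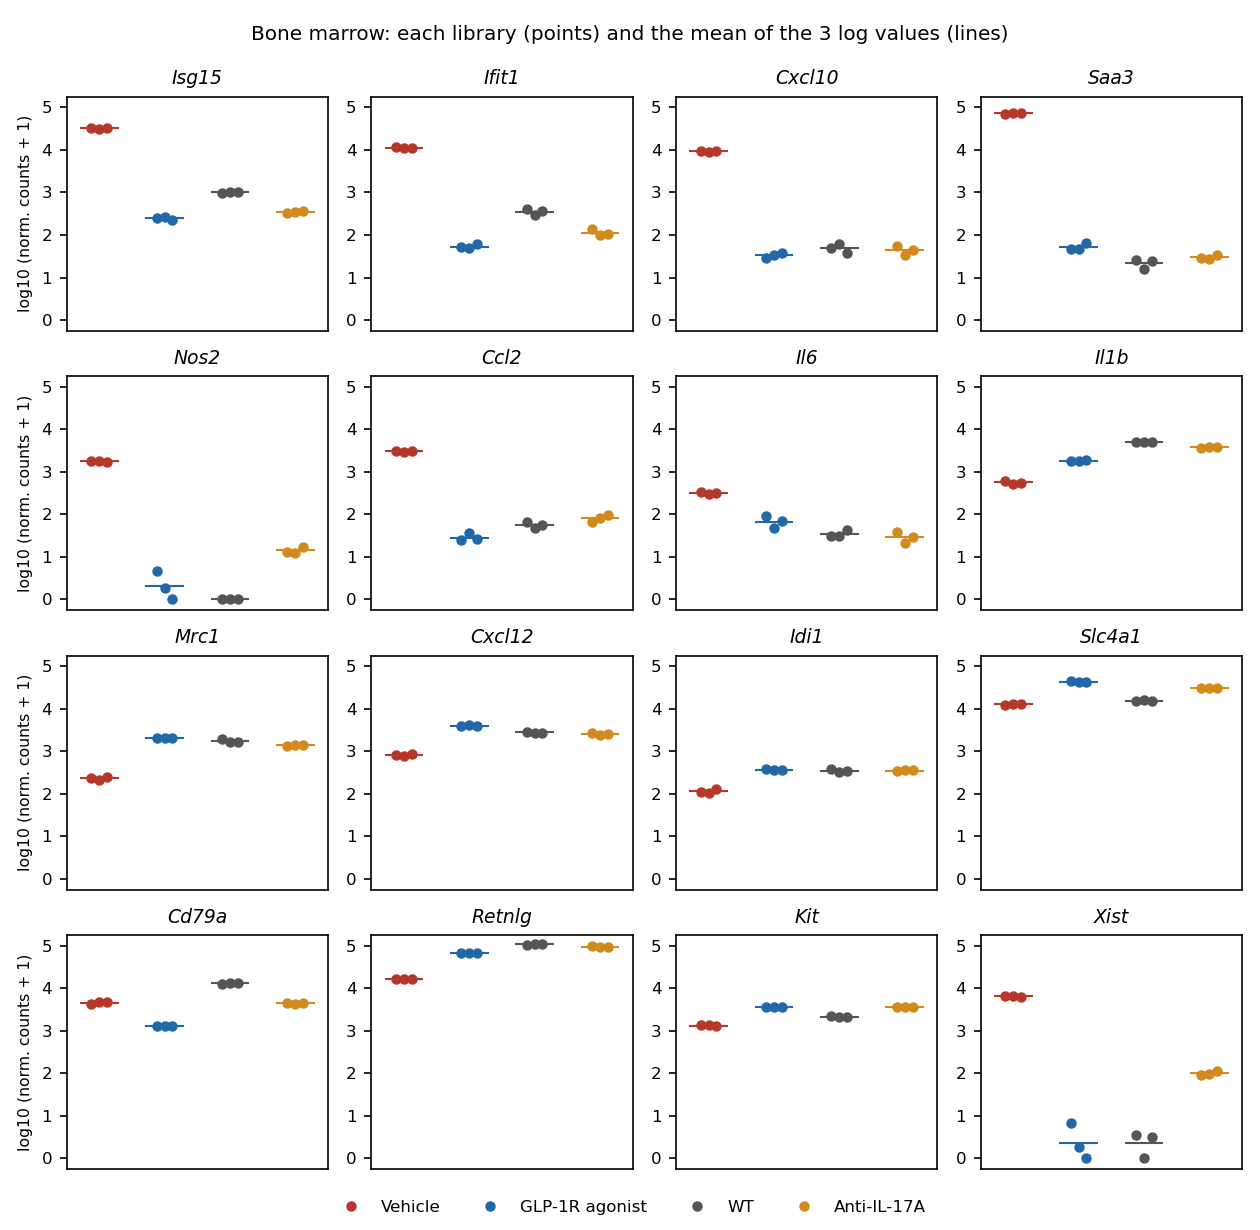
Each point is 1 BM library, with the log10 of normalized counts plus 1 on the vertical axis, for 16 genes in 4 groups of 3 libraries; the line is the mean of the 3 log values. *Isg15*, *Ifit1*, *Cxcl10*, *Saa3*, *Nos2* and *Ccl2* stood apart in the vehicle group, *Il1b*, *Mrc1*, *Cxcl12*, *Idi1*, *Slc4a1*, *Retnlg* and *Kit* were lowest there, and *Cd79a* was lowest with the agonist.

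Feedback genes of NF-kB, which restrain the pathway once it is active, were lower along with its targets. Of 18 measured 11 were called lower and 0 higher (median log2 fold change -1.57), among them *Tnfaip3*, the deubiquitinase A20, from 2956, 2882 and 2880.3 to 634, 664 and 708, and *Icam1*, an adhesion molecule, 5.03-fold. *Relb*, a subunit of the noncanonical pathway, fell 4.56-fold and *Traf1* 4.64-fold. In the STAT list 2 of 17 genes were called lower and 0 higher, *Jak3* (3.72-fold) and the kinase *Pim1* (2.63-fold). This was 11.8%, near the 9.08% of all genes. Of 20 genes of Ras-ERK signaling and feedback, 3 were called lower and 0 higher, with a median of -0.18. They were the phosphatases *Dusp2* (2.37-fold) and *Dusp5* (2.76-fold), and *Ier3* (2.9-fold), all early response genes, and 3 of 20 stands beside 9.08% of all genes called lower.

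Stress genes were lower in part. Of 16 genes of the unfolded protein and integrated stress response 6 were called lower and 0 higher (median log2 fold change -0.72). *Atf3*, a stress-induced transcription factor, fell 8.11-fold from 611, 628 and 612 to 70.3, 77.1 and 80.7. *Phgdh*, the first enzyme of serine synthesis, fell 2.7-fold, the chaperone *Pdia4* 2.75-fold and *Trib3* 2.44-fold, and *Hspa5*, the main chaperone of the endoplasmic reticulum, and *Vldlr* were also called. Of 12 heat shock and early response genes, which also rise while cells are being isolated, 4 were called lower, *Jun* among them (3.56-fold), and the inducible chaperone *Hspa1b* (168 ± 11.6 to 49.9 ± 22.6). The part of sample handling in these differences was not tested.

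Genes of immune suppression and alternative macrophage activation split, with 9 of 16 called lower and 5 higher. *Arg1*, arginase 1, was at 2457, 2550.4 and 2474 in vehicle libraries and 13.1, 9.64 and 9.2 with the agonist, 231-fold lower (log2 fold change -7.85, standard error 0.125, adjusted p = 1.32e-38, edgeR). *Ctla4*, an inhibitory receptor of T cells, fell 7.68-fold, and *Cd274*, which encodes PD-L1 and is on the interferon gamma list, 8.91-fold. *Mrc1*, the mannose receptor CD206 of resident macrophages, rose from 237, 212 and 251 to 2037, 2028 and 2024, 8.73-fold (log2 fold change 3.13, standard error 0.0699, adjusted p = 3.87e-33, edgeR). The scavenger receptor *Cd163* (5.77-fold), *Trem2* (5.68-fold), *Cd96* (3.14-fold) and *Cd209a*, at a low level, were the other members called higher. Of 11 acute-phase and antimicrobial genes, *Saa3* not among them, 3 were called lower and 0 higher. *Hp*, haptoglobin, fell 3.2-fold from 139099.7 ± 3081 to 43473 ± 365, *Orm1* 5.5-fold and *Cp*, ceruloplasmin, 2.17-fold.

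MHC class II genes, which present antigen to CD4+ T cells, were lower in the agonist libraries. Of 11 measured 7 were called lower and 0 higher (median log2 fold change -1.19), and the libraries were apart for all 11, beside 37.6% of all genes with every agonist library lower. *H2-Eb1*, a class II beta chain, was at 6828, 6764 and 7011 in vehicle libraries and 2715, 2541 and 2545 with the agonist (log2 fold change -1.40, standard error 0.0316, adjusted p = 4.3e-33, edgeR). *Cd74*, the invariant chain, fell 2.53-fold, *H2-Oa*, which shares 22.8% of its exon bases with another gene, 2.83-fold and *Ctss*, the protease that cleaves the invariant chain, 3.52-fold. B cell markers moved in the same direction, and their part in the class II result was not tested.

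Genes of cholesterol synthesis moved upward or not at all by the rule. Of 23 genes of cholesterol synthesis and uptake 8 were called higher and 0 lower (median log2 fold change 0.63). *Idi1*, an isomerase of the early pathway, was at 107, 103 and 132 in vehicle libraries and 377, 354 and 357 with the agonist (log2 fold change 1.67, standard error 0.11, adjusted p = 4.61e-17, edgeR). *Stard4*, a sterol carrier, rose 2.88-fold and *Hsd17b7* 2.87-fold. *Sqle*, *Msmo1*, *Lss* and *Insig1* were also called.

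Some genes of fat storage fell. Of 16 genes of fatty acid synthesis and storage 4 were called lower (25%) and 1 higher (6.25%), beside 9.08% and 7.6% of all genes. The median log2 fold change was -0.21. *Plin2*, which coats lipid droplets, fell from 16876, 17267 and 17546 to 3406, 3378 and 3574 (log2 fold change -2.32, standard error 0.0371, adjusted p = 2.7e-28, edgeR). The triglyceride enzymes *Dgat2* and *Dgat1* fell 3.28-fold and 2.37-fold, and the desaturase *Fads2* rose 2.66-fold. Of 23 genes of fatty acid oxidation 3 were called lower and 0 higher, with a median of -0.038, *Acaa1a* (2.28-fold), *Slc25a20* (2.02-fold, not called without vehicle replicate 1 at a log2 fold change of -0.99) and *Pdk4* at a low level, and 3 of 23 is near the 9.08% of all genes.

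Among 19 genes of LXR, PPARG and lipid handling, 3 were called lower and 3 higher, beside 9.08% and 7.6% of all genes. *Lipg*, endothelial lipase, was at 11165, 11198 and 10992 in vehicle libraries and 158, 171 and 165 with the agonist, 67.4-fold lower (log2 fold change -6.08, standard error 0.0522, adjusted p = 6.3e-48, edgeR), and the Combo libraries were at 6988, 7321 and 7046. *Msr1*, a scavenger receptor of macrophages, fell 5.51-fold. *Cd36*, a fatty acid transporter and PPARG target, rose from 318, 289 and 294 to 2171, 2213 and 2056 and *Fabp4*, a fatty acid carrier, 4.76-fold. Of 22 glycolysis genes 4 were called lower and 2 higher, the latter near the share of all genes (median log2 fold change -0.67). The glucose transporter *Slc2a1* fell 3.37-fold, *Pfkl* 4.36-fold, *Pfkp* 2.89-fold and *Aldoa* 2.52-fold, while *Tpi1* and *Eno1* stopped just short of the fold limit. The muscle isoform *Pfkm* and the kinase *Pdk1* were the members called higher.

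Genes of peptide hormone signals were mixed. Of 10 measured genes of the GLP-1 receptor and peptide hormone axis 2 were called higher and 2 lower (median log2 fold change -0.022). *Dpp4*, the protease that degrades GLP-1, was at 1345, 1224 and 1202 in vehicle libraries and 365, 341 and 357 with the agonist (log2 fold change -1.83, standard error 0.0651, adjusted p = 5.21e-26, edgeR). *Igf1*, insulin-like growth factor 1, rose from 40.8, 33.3 and 27.6 to 277, 296 and 276 and *Lepr*, the leptin receptor and a marker of marrow stroma, from 42, 36.5 and 20.4 to 131, 156 and 127. *Sct*, the hormone secretin, was at 116, 126 and 131 in vehicle libraries and had 0 counts in every agonist library, at least 43.7-fold lower. Insulin and IGF receptors were not called (log2 fold changes of -0.015 for *Insr* and -0.029 for *Igf1r*).

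The cyclic AMP and CREB response, the textbook readout of GLP-1R in cells that carry it, was lower in part. Of 17 genes 6 were called lower (35.3%) and 1 higher (5.88%), beside 9.08% and 7.6% of all genes. *Crem* fell 3.09-fold, the phosphodiesterase *Pde4b* 2.4-fold and the orphan receptor *Nr4a1* from 1987, 2083 and 2153 to 1059, 982 and 959.6, while *Fosb* rose 2.25-fold. Of 14 genes of the glucocorticoid response 3 were called lower (21.4%, beside 9.08% of all genes) and 0 higher. *Il1r2*, the decoy receptor for IL-1, fell from 41399.9, 42894 and 42369 to 4063, 4196 and 4165 (log2 fold change -3.35, standard error 0.0271, adjusted p = 7.86e-49, edgeR), *Ddit4* 2.53-fold and *Per1*, a clock gene on both lists, 2.05-fold. Against WT marrow the glucocorticoid genes lay on the other side, with 7 of 14 called higher in agonist marrow and 0 lower.

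**Figure D3:**
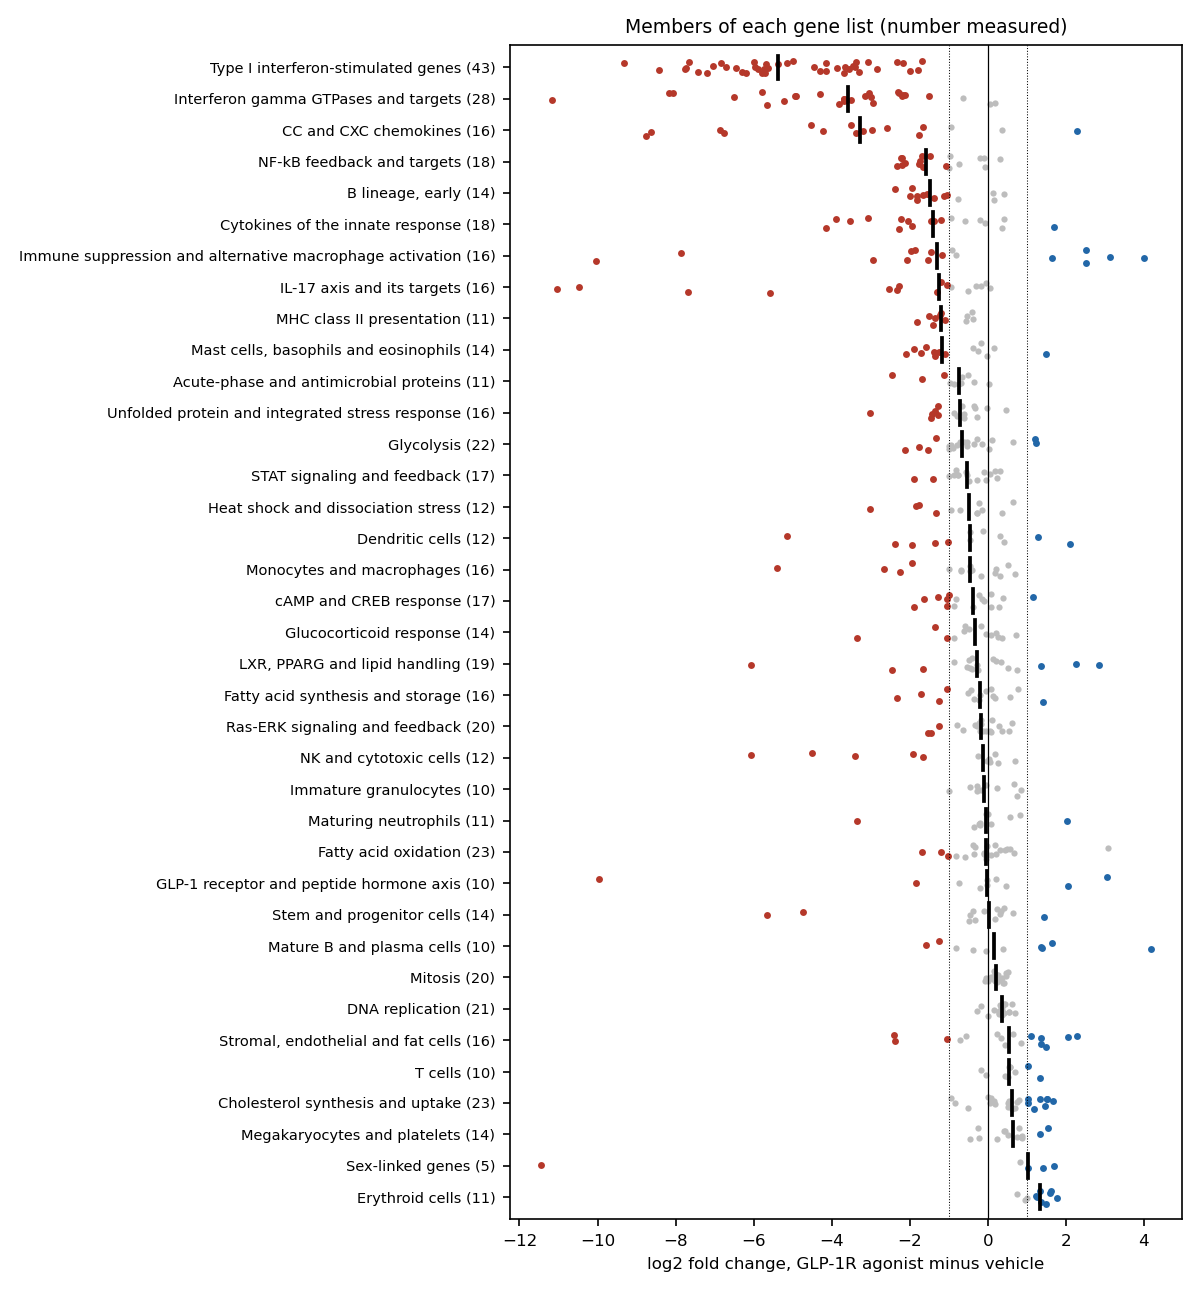
Each row is 1 gene list with the number of genes measured; points are members by their log2 fold change, agonist minus vehicle (red called lower, blue called higher, grey not called), and the black bar is the median. Interferon-stimulated genes lie lowest, with a median of -5.36, and erythroid genes highest, at 1.33.

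Myeloid markers did not move as 1 group. Of 10 genes of immature granulocytes 0 were called by edgeR, and the median log2 fold change was -0.11. The false discovery rate alone was passed by 9, beside 72.8% of all genes. By DESeq2 1 was called, *Serpinb1a*, an elastase inhibitor. *Mpo* and *Elane*, enzymes of primary granules, had log2 fold changes of 0.67 and 0.24, and *Prtn3* of -0.052. Of 11 genes of maturing neutrophils *Retnlg*, a resistin-like protein, was called higher (16277, 16167 and 16485 to 67589, 67147 and 66968) and *Il1r2* lower, shares near the 7.6% and 9.08% of all genes. Of 16 genes of monocytes and macrophages 4 were called lower and 0 higher, and their summed level was 162752 to 167814 normalized counts per vehicle library and 58805 to 59415 per agonist library. *Ms4a4c* fell 41.9-fold, *Fcgr4*, a receptor for IgG, 6.26-fold, *Ly6c2*, the Ly6C antigen of inflammatory monocytes, from 90273, 95359 and 96397 to 19869, 19165 and 19971, and *Ms4a6c*, which shares 53.1% of its exon bases with other genes, 3.82-fold. Most of the summed level in vehicle libraries, and most of its fall, came from *Ly6c2*, so the sum does not measure the number of monocytes. The defining receptors *Csf1r* and *Ccr2* had log2 fold changes of -0.44 and -0.16, and the resident macrophage genes *C1qa* and *Adgre1* of 0.30 and 0.18.

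Of 12 dendritic cell genes 5 were called lower (41.7%) and 2 higher (16.7%), beside 9.08% and 7.6% of all genes. *Bst2*, also a type I interferon-stimulated gene, fell 35.5-fold and *Ccr7*, the homing receptor of mature dendritic cells, 2.54-fold, while the transcription factor *Zbtb46* rose from 183, 190.1 and 221 to 457, 477 and 508. Among genes of mast cells, basophils and eosinophils, 8 of 14 were called lower (57.1%, beside 9.08% of all genes). The eotaxin receptor *Ccr3* alone was called higher (7.14%, near the 7.6% of all genes), and the median log2 fold change was -1.17. *Prss34* and *Mcpt8*, proteases of basophils, fell 2.97-fold and 3.24-fold, *Fcer1a*, the IgE receptor, 3.69-fold and the eosinophil ribonuclease *Ear1* 4.28-fold. *Epx* and *Prg2*, granule proteins that define eosinophils, had log2 fold changes of -0.18 and -0.25.

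Most early B cell genes fell. Of 14 genes of the early B lineage 10 were called lower and 0 higher (median log2 fold change -1.47). Their summed level was 18431 to 19239 normalized counts per vehicle library and 7501 to 7604 per agonist library. *Pax5*, which fixes the B cell fate, was at 452, 429.5 and 463 in vehicle libraries and 80.6, 76.3 and 101 with the agonist (log2 fold change -2.39, standard error 0.114, adjusted p = 1.27e-21, edgeR). *Ebf1*, the factor that acts before it, fell 3.94-fold, *Vpreb3*, part of the pre-B cell receptor assembly, 3.85-fold and *Cd79a*, the signaling chain of the B cell receptor, from 4345, 4625 and 4685 to 1291, 1298 and 1276. *Il7r*, the receptor for IL-7 on lymphoid progenitors, had a log2 fold change of 0.13.

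Mature B cell and plasma cell genes parted. *Ms4a1*, which encodes CD20, and *Cd22* fell 2.99-fold and 2.36-fold, and the plasma cell genes *Jchain*, the joining chain of IgM and IgA (7017, 6887 and 6868 to 18400.0, 18331 and 17946), and *Sdc1*, which encodes CD138, rose 2.63-fold and 2.59-fold. In all 4 of 10 were called higher and 2 lower, and log2 fold changes of the list ran from -1.58 to 4.20. Of 10 T cell genes 2 were called higher (20%, beside 7.6% of all genes), *Bcl11b* (2.52-fold) and *Cd8b1* (186 ± 16.5 to 378 ± 53.7), and 0 lower. The call of *Cd8b1* was lost without agonist replicate 1 and without vehicle replicate 1, at log2 fold changes of 0.92 and 0.96. The chains of the T cell receptor complex, *Cd3d*, *Cd3e* and *Cd3g*, had log2 fold changes of 0.54, 0.44 and 0.51.

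Of 12 genes of NK and cytotoxic cells 5 were called lower and 0 higher, beside 9.08% and 7.6% of all genes (median log2 fold change -0.13). *Gzmb*, granzyme B, was at 8411, 8408 and 8375 in vehicle libraries and 124, 123 and 129 with the agonist, 67.2-fold lower (log2 fold change -6.07, standard error 0.0608, adjusted p = 1.02e-45, edgeR). *Gzma* fell 22.6-fold, *Prf1*, perforin, 10.6-fold and *Klrk1*, the activating receptor NKG2D, 3.79-fold. *Ncr1*, which encodes NKp46 and defines NK cells, had a log2 fold change of 0.26, and the granule genes *Nkg7* and *Ctsw* of -0.26 and -0.0071.

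Most erythroid genes rose. Of 11 measured 8 were called higher and 0 lower, beside 7.6% of all genes called higher (median log2 fold change 1.33). Their summed level was 69819 to 70652 normalized counts per vehicle library and 176544 to 178019 per agonist library. *Alas2*, the first enzyme of heme synthesis in red cell precursors, rose from 5925, 5850.4 and 5774 to 18064, 17801 and 18113 (log2 fold change 1.62, standard error 0.0261, adjusted p = 1.95e-38, edgeR). *Slc4a1* rose 3.42-fold, *Ermap* 3.01-fold and *Ank1*, ankyrin of the membrane skeleton, 2.83-fold. The transferrin receptor *Tfrc*, the carbonic anhydrase *Car1* and the transcription factor *Gata1* did not pass the fold limit, and *Gata1* had a log2 fold change of 0.75. Of 14 megakaryocyte and platelet genes 2 were called higher (14.3%, beside 7.6% of all genes) and 0 lower. They were *Gp5* (2.91-fold) and *Vwf*, von Willebrand factor (2.54-fold).

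Of 14 stem and progenitor markers 1 was called higher and 2 lower, shares near the 7.6% and 9.08% of all genes. *Kit*, the receptor for stem cell factor, rose from 1335, 1328 and 1286 to 3594, 3581 and 3575 (log2 fold change 1.44, standard error 0.0364, adjusted p = 2.36e-31, edgeR), whereas *Ly6a*, which encodes the stem cell antigen Sca-1 and is raised by interferon, fell from 14803, 14885 and 14959 to 547, 544 and 602, 26.4-fold. *Procr*, the protein C receptor, fell from 344, 359 and 414 to 9.37, 3.51 and 9.2, and the other 11 were not called (median log2 fold change of the list 0.042). Of the cell cycle genes none was called by edgeR or DESeq2, with median log2 fold changes of 0.35 over 21 genes of DNA replication and 0.21 over 20 genes of mitosis. Still, 20 and 18 of them passed edgeR's false discovery rate, beside 72.8% of all genes. The agonist libraries were all above the vehicle libraries for 18 and 17, beside 37.9% of all genes. *Rrm1*, a subunit of ribonucleotide reductase, was at 13149, 12659 and 12621 in vehicle libraries and 19475, 19791 and 20044 with the agonist (log2 fold change 0.63, standard error 0.0227, adjusted p = 1.07e-25, edgeR). *Mki67*, the proliferation marker Ki-67, was at 21394, 22473 and 22668 and, with the agonist, at 26755, 26809 and 26986.

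Several genes of stroma and fat cells rose and 3 of endothelial cells fell. Of 16 genes 6 were called higher, among them *Cxcl12*, *Lepr*, the collagen *Col1a2* (2.56-fold) and adiponectin, *Adipoq* (81.6, 52.6 and 70.8 to 185, 202 and 185). The 3 called lower were all endothelial, *Cdh5* (5.26-fold), which joins endothelial cells, *Kdr*, the VEGF receptor (184, 165 and 214 to 29.1, 33.3 and 47), and *Emcn* at a low level. *Pecam1*, the other endothelial gene of the list, was not among them. The summed marker levels of erythroid, early B and monocyte lists moved with the groups as given, the monocyte sum mostly through *Ly6c2*. The part of cell composition in the inflammatory gene differences was not tested.

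Agonist marrow was next set beside that of WT recipients and of *Ob/Ob* recipients given the anti-IL-17A antibody, each with its own test in the same fit. Both comparisons use the agonist libraries again, and are given side by side. WT replicate 1 stood apart, with a chi-square per degree of freedom of 34.8 and 26.6 against the other WT libraries, where all other pairs of BM replicates were between 2.02 and 4.21. Against WT 1965 genes were called (14.7%), 814 higher (6.1%) and 1151 lower (8.62%) in agonist marrow, and without WT replicate 1 there were 1942 (818 higher, 1124 lower), 1811 of them shared. Against the antibody 779 were called (5.83%), 324 higher (2.43%) and 455 lower (3.41%). Interferon-stimulated genes were below WT too, with 31 of 43 called lower and 0 higher and a median log2 fold change of -1.81, and 13 of 43 called lower than with the antibody (median -0.62). *Isg15* was at 958, 1040.5 and 1014 in WT libraries, 4.01-fold above agonist marrow (adjusted p = 2.77e-28, edgeR), and *Ifit1* at 403, 292 and 357, 6.74-fold above it (adjusted p = 4.95e-17, edgeR).

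Several lists that differed from vehicle lay near 0 against WT. Chemokines had a median of -0.21 against WT, with 4 of 16 called lower and 1 higher. The IL-17 axis had a median of 0.034, with 1 of 16 lower and 3 higher. Against WT 8.62% of all genes were called lower and 6.1% higher. Glycolysis had a median of 0.036, with 0 of 22 called by edgeR (1 without WT replicate 1). Among the 3 of the IL-17 axis was *Saa3*, at 25.1, 14.9 and 23.7 in WT libraries (log2 fold change agonist minus WT 1.27, adjusted p = 3.55e-08, edgeR). Early B genes had the lowest median of all lists, with 12 of 14 called lower than WT (median -3.36) and 12 of 14 lower than with the antibody (median -2.21). *Pax5* was at 832, 844 and 981 in WT libraries and 364, 419 and 367 with the antibody, and *Ms4a1* at 6546, 5112 and 5275 and 1229, 1202 and 1195. Class II genes were called lower than WT for 8 of 11, and for 9 without WT replicate 1. The counts of interferon-stimulated, IL-17 axis, early B and erythroid genes against WT were equal without that library, and the chemokines called lower were 3 instead of 4. Erythroid genes were above WT, with 5 of 11 called higher and 0 lower (median 0.79), and 1 of 11, *Alas2*, was called higher than with the antibody (log2 fold change 1.25, adjusted p = 1.99e-33, edgeR). *Cd101* and *Il1b*, which rose with the agonist, were still called lower than in WT (-1.94 and -1.48) and lower than with the antibody (-1.22 and -1.07). Lymphoid and erythroid marker sums differed from WT as well, 52298 to 53832 for early B and 86774 to 89841 for erythroid genes in WT libraries.

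**Figure D4:**
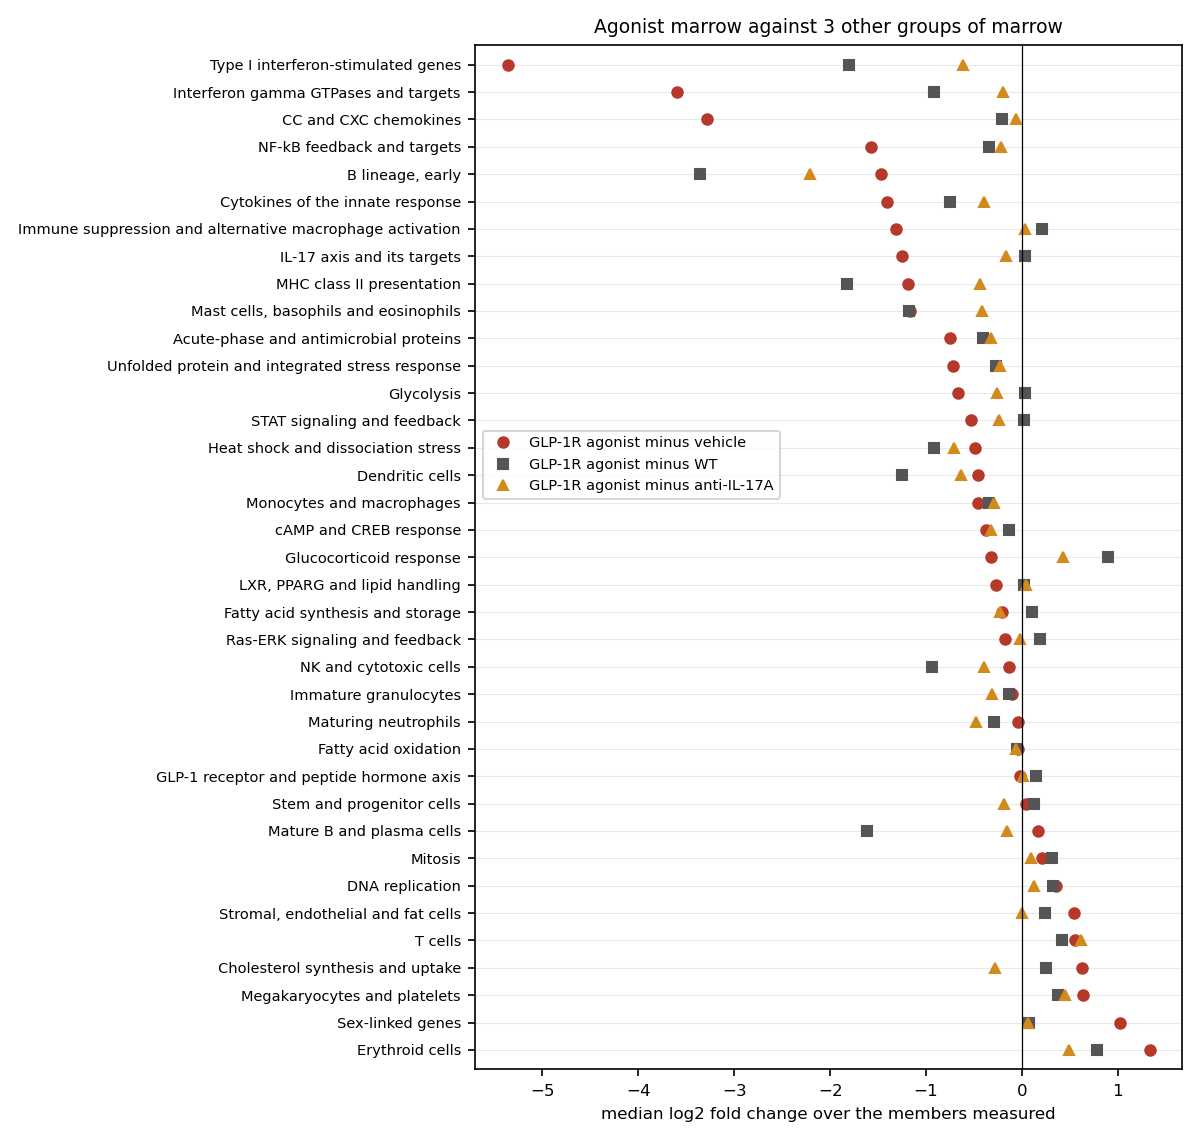
Each row is 1 gene list and each marker the median log2 fold change of its measured members for agonist minus vehicle (red circles), minus WT (grey squares) and minus anti-IL-17A (orange triangles). The interferon lists lie below 0 against all 3 groups, early B genes are at -1.47, -3.36 and -2.21, and erythroid genes are above 0 against all 3.

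The same drug contrast was measured in adipose tissue macrophages (ATMs), F4/80+ cells sorted from fat of the same kinds of recipients. Whether the difference between agonist and vehicle was the same in both tissues was tested by an interaction term. This term was fitted to all 30 libraries over the 13076 genes in both tables. It was called for 3478 genes (26.6%), 1364 with a higher log2 fold change in BM (10.4%) and 2114 with a lower one (16.2%). The 2 tissues differ in spread, with a biological coefficient of variation of 32.5% in ATMs, and the shared fit used 14.5%, so p-values are too small for genes that vary like the ATM libraries. In ATMs alone 3910 genes (29.9%) were called between agonist and vehicle in that fit, 2226 higher (17%) and 1684 lower (12.9%), and 4 Y-linked genes were called higher and *Xist* lower there too. All 43 interferon-stimulated genes were called lower in ATMs as well (median -4.70, BM -5.38), and the difference was called for 20 of them. *Isg15* was at 70305, 68179 and 73969.8 in ATM vehicle libraries and 2468, 2322 and 2139 with the agonist, a log2 fold change of -4.94 beside -7.05 in BM (difference -2.11, adjusted p = 2.82e-16, edgeR).

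Some genes moved in opposite directions. *Il1b* fell in ATMs from 17993, 16463 and 18464 to 3719, 3513 and 3506 and rose in BM, a difference of 3.98 on the log2 scale (adjusted p = 2.41e-23, edgeR). *Lepr* rose in BM and fell in ATMs from 1459.5, 1443 and 1824 to 119, 186 and 155 (difference 5.40, adjusted p = 9.14e-14, edgeR). For class II genes the median log2 fold change was -1.21 in BM and 1.22 in ATMs, with 7 of 11 called higher in ATMs, and the difference was called for 10 of 11. Genes of NK and cytotoxic cells had medians of -0.15 in BM and 2.17 in ATMs, with the difference called for 11 of 12. All 10 T cell genes were also called higher in ATMs, although neither list marks F4/80+ cells, and the part of other cells in the ATM values was not tested.

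**Figure D5:**
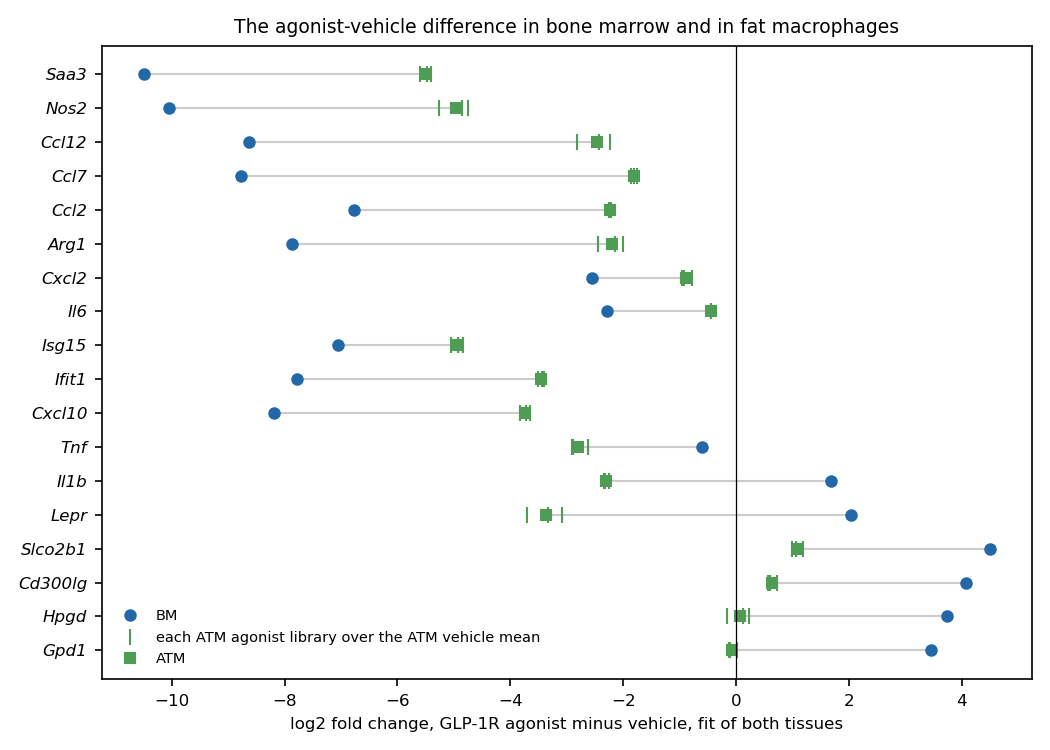
For 18 genes, the log2 fold change agonist minus vehicle from the fit of both tissues in BM (blue circles) and ATMs (green squares); green ticks are the 3 ATM agonist libraries over the mean of the ATM vehicle libraries, on the scale of log2 of normalized counts plus 1. *Saa3*, *Nos2*, *Arg1*, *Ccl2*, *Ccl7*, *Ccl12*, *Cxcl2* and *Cxcl10* lie farther below 0 in BM, and *Il1b* and *Lepr* lie on opposite sides of 0.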

How the data were processed

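Poly(A) RNA was sequenced from BM and ATMs in unstranded paired-end libraries. Per the study's methods, the authors aligned reads to mm10 (GRCm38) with STAR 2.7.2a and made gene counts with featureCounts 2.0.1 on GENCODE M22, unstranded, with reads on overlapping genes counted for each, so a gene and an overlapping or antisense neighbor cannot be told apart. The deposited values are raw counts per gene and library. The smallest total of any gene over the 15 BM libraries was 55, so genes below such a total are not analysed here. Groups came from the labels.

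From the counts, edgeR 4.0.16 (R 4.3.3, TMM scaling, robust quasi-likelihood fit, Benjamini-Hochberg adjustment) was fitted once to the 15 BM libraries and once to the 30 libraries of both tissues. Its filter on low counts removed 0 genes. The fits were tested on simulated data. Fold changes against a group at 0 used a floor of 3 counts per library, and exact 95% intervals for counts were given for group totals up to 30. Named genes were the 10 largest changes each way with a mean of at least 100 normalized counts and libraries apart, up to 4 per list by the same minimum, fixed genes of the study's question, and other members by value to account for a list. The 37 lists hold 632 genes, of which 585 were measured. A few genes of the lists are not reported here by name. Members and lists were chosen with earlier results of these data known. Positions are from GENCODE M21 (GRCm38) and promoters from RefSeq. Alternatives were DESeq2 1.42.0, its size factors, count filters, fold limits, fewer libraries and the replicate number as a block. Omission of single libraries from the comparisons with WT, anti-IL-17A and ATMs, and of WT replicate 1, was added after seeing the data.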

Additional observations from a re-analysis of the deposited data

Results flagged for a closer look

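The difference between agonist and vehicle libraries was not the same in BM and ATMs for 3478 of 13076 genes by edgeR's interaction test. The genes named in the report that were among them are given here as the log2 fold change in BM minus that in ATMs. In both tissues *Xist* fell and Y-linked genes rose with the agonist, so sex of the cells and treatment cannot be told apart here either. Among the genes with the largest rise in BM, the difference was 1.92 for *Chp2*, 2.93 for *Stxbp6*, 3.41 for *Slco2b1*, 3.45 for *Cd300lg*, 5.40 for *Slfn14*, 3.67 for *Hpgd* and 3.52 for *Gpd1*. Among those with the largest fall in BM it was -5.83 for *Il22*, -4.99 for *Saa3*, -3.57 for *Gm15056*, -5.10 for *Nos2*, -2.99 for *Oas1g*, -6.96 for *Ccl7* and -6.16 for *Ccl12*. For the inflammatory genes *Il6*, *Ccl2*, *Cxcl2*, *Arg1* and *Isg15* it was -1.84, -4.54, -1.67, -5.68 and -2.11. It was positive for *Tnf* (2.20), *Il1b* (3.98) and *Lepr* (5.40). *Tnf* fell in both tissues, with log2 fold changes of -0.60 in BM and -2.81 in ATMs, whereas *Il1b* and *Lepr* rose in BM and fell in ATMs. The Y-linked genes *Ddx3y*, *Kdm5d*, *Eif2s3y* and *Uty* had differences of -2.22, -3.55, -1.33 and -1.35. Fitted differences of *Il22*, *Gm15056*, *Nos2*, *Ccl7* and *Ccl12*, which kept few or no counts in agonist BM, depend on the small value that edgeR adds to counts.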

How the results depend on the processing

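The 2228 genes called between agonist and vehicle became 2237 with DESeq2's size factors, 2231 with DESeq2, 2166 with only the 6 libraries, and 2200 to 2234 (975 to 1020 higher, 1201 to 1231 lower) without 1 library each, WT replicate 1 among them. Leaving out 1 library gave 1942 to 1994 genes against WT, 763 to 789 against anti-IL-17A and 3376 to 3604 between tissues, alternatives chosen after seeing the data. Without the fold limit there were 9717 (4872 higher, 4845 lower), 9970 against WT (4889 and 5081), 8376 against anti-IL-17A (4213 and 4163) and 6979 between tissues (2990 and 3989). edgeR's test against a log2 fold change of 1 called 1417 (545 higher, 872 lower). With at least 10 counts in every library, which left 11919 genes, 1536 were called (624 higher), 525 were higher than WT, and 454 differed from anti-IL-17A (171 higher, 283 lower). DESeq2 called 3544 genes between tissues. The list medians turned sign at this count minimum for the GLP-1 axis (0.1054) and mature B and plasma cells (-0.0396), and ranged from -0.0119 to 0.0919 for stem and progenitor cells without 1 library each. Of 147 named genes 125 kept direction and call in every alternative that was run. Those near the fold limit (*Nr4a1*, *Per1*, *Cp*, *Slc25a20*, *Trib3*, *Eif2s3y* and *Cd8b1*) were not called by edgeR's test against that limit, and *Il17a* had too few counts for the count minimum.

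With the replicate number as a replicate block, 2234 genes were called against vehicle, 1962 against WT, 785 against anti-IL-17A and 3474 between tissues. Same-numbered agonist and vehicle libraries did not deviate together (correlations of -0.0362, -0.0024 and 0.0302 over 10578 genes). The labels state no pairing by number, and so few libraries with so small a spread cannot exclude one. With 3 libraries per group of unstated pooling, agonist effects and differences between mice of a group, including sex, cannot be told apart.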
